A study of Homo sapiens with 8 samples.

Results

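This account follows 10 genes of growth factor signalling in fibroblasts whose p53 was released from MDM2. They are the receptor tyrosine kinase genes PDGFRA, PDGFRB, FGFR1, EGFR, IGF1R and MET and the ligand genes PDGFC, HGF, FGF2 and FGF7. The genes were taken by name, and 10 of 10 had a row in a table of 18216 genes and passed the filter on low values that left 14074 genes for testing. PolyA RNA came from IMR90 human lung fibroblasts at passage 28, grown with 10% serum at 3% oxygen and 5% carbon dioxide. One group of 2 libraries received the vehicle DMSO. The other 3 groups, also 2 libraries each, received Nutlin-3a at 3 µg/mL for 6, 9 or 12 h, and all groups were the same unmodified line. Nutlin-3a is a small molecule that occupies the p53 pocket of MDM2, the ubiquitin ligase that keeps p53 low. The labels do not say at what time the DMSO cells were taken or whether the replicates were separate cultures, so the p-values measure the spread between these libraries, which may be technical.

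Receptor tyrosine kinases span the plasma membrane, and most pair when a ligand binds. They phosphorylate each other and adapters that feed the RAS-ERK and PI3K pathways. Fibroblasts both answer such ligands and release them: PDGF and FGF2 act on fibroblasts, whereas HGF and FGF7 are made by fibroblasts and act mainly on neighbouring epithelium, HGF through MET and FGF7 through an FGFR2 splice form. PDGFC is a PDGF that binds PDGFRA after a protease removes its CUB domain.

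The libraries held from 21930470 to 33585645 reads assigned to genes, and the 10 genes had between 486 and 11347 reads in a library. Values are normalized counts, which are read counts divided by the library's size factor. Known p53 targets were high in the 6 treated libraries: MDM2 averaged 2039 in DMSO and 16670, 17483 and 17756 at 6, 9 and 12 h, and CDKN1A, which encodes the cell cycle inhibitor p21, averaged 4812, 53380, 69469 and 71666. The 10 fibroblast markers, led by COL1A1, summed to 1265360 and 1294940 in DMSO and to 1497900 and 1528980 at 12 h, when 5 rose and 2 fell. Of 10 epithelial markers 6 were in the table, summing to 2822 to 3757 and led by KRT18, while KRT5, KRT14, SFTPC and NKX2-1 had no row. Endothelial markers, 6 of 7 in the table, summed to 1985 and 2092 in DMSO and to 1454 and 1526 at 12 h, mostly from TEK, and PECAM1 had no row. Immune markers, 4 of 7 in the table, summed to 748 to 993, mostly from CD68. Smooth muscle and pericyte markers, 8 of 8, summed to 24179 and 26392 in DMSO and to 27554 and 28180 at 12 h. At 12 h, 2 of them rose and 1 fell. In DMSO and at 12 h, ACTA2 averaged 8338 and 8193, CSPG4 6900 and 10218, MCAM 6192 and 5970, and CNN1 3179 and 2613. KCNJ8 averaged 522 and 716, RGS5 90.0 and 97.3, MYH11 44.0 and 36.3, and DES 21.3 and 22.3. The libraries of DMSO and 12 h did not overlap in any of these sums, but only narrowly so for the epithelial and immune sums. With 2 libraries a group, a lack of overlap alone does not show a shift. How often other genes or sums lack overlap is not given here, so no change in cell types is read from it. Epithelial sums were 2958 and 3014 in DMSO and 2822 and 2949 at 12 h. Immune sums were 748 and 903 in DMSO and 911 and 961 at 12 h. The part of these markers in the results was not tested. Between the replicates of one group, log2 values of 10612 genes differed with an SD of 0.16 in DMSO and of 0.10 to 0.11 in the treated groups.

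The sequences shown first are those of a p53-induced microRNA, because its host transcript rose here and MET is one of its textbook targets. MIR34AHG, the host transcript of miR-34a, stood at 231 and 229 in DMSO, 660 and 654 at 6 h, 520 and 597 at 9 h, and 590 and 585 at 12 h. The mature microRNA was not measured. Its sequence, from RefSeq on GRCh38.p14 at chr1:9151735-9151756, minus strand, has the seed (bases 2 to 8) in capitals.
hsa-miR-34a-5p: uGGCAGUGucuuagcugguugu
The 7-letter match to this seed, CACTGCC, was looked for in the 3′ UTR of the principal GENCODE v29 transcript of each gene. It occurred in 7 of the 10 genes, with 2 matches in MET, 1 each in PDGFRA, PDGFRB, FGFR1, HGF, FGF2 and FGF7, and none in EGFR, IGF1R or PDGFC. Of 12757 tested genes with a 3′ UTR, 16.1% held a match, but the median UTR was 1117 bases for those genes and 3274 for the 10 genes, and a longer UTR holds more matches. Stretches of 25 bases, with the match in capitals, are shown for the genes with a match that were called at 6 h: MET, PDGFRA, HGF and FGF7, which fell, and PDGFRB and FGF2, which rose.
MET, first match: atggttttttCACTGCCtgaccttt
MET, second match: agatacttgtCACTGCCtatacctg
PDGFRA: caagctgtatCACTGCCttcgttta
HGF: gcttctagctCACTGCCtttaaatt
FGF7: atccctactcCACTGCCatttactt
PDGFRB: atggttttgtCACTGCCcagaccta
FGF2: tgaaaatcagCACTGCCtgagtagt
A match is a description of letters and says nothing of binding. Genes with it went both ways in these libraries, as the values below show.

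Promoters are shown for FGF2 and FGF7, whose levels spanned the widest range among the 10 genes and moved in opposite directions from DMSO to 6 h and from 6 to 9 h. Each is the 250 bases before the RefSeq start on GRCh38.p14, plus strand, with motif letters in capitals. Motifs were searched on both strands. The letters GGGCGG were taken as a GC box, a common binding site of SP1, and CCAAT as the CCAAT box that the factor NF-Y binds. A TATA box was read as TATAAA, which positions the start of many genes. For the E-box of MYC and its relatives the letters were CACGTG. An AP-1 site was read as TGANTCA, where N is any base, and the p53 half-site was searched by its usual consensus.
FGF2, chr4:122826581-122826830: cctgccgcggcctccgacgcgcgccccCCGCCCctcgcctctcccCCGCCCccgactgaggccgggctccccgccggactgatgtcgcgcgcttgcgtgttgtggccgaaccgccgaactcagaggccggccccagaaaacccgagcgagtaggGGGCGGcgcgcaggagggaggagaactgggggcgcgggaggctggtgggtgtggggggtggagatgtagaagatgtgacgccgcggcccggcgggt
FGF7, chr15:49422992-49423241: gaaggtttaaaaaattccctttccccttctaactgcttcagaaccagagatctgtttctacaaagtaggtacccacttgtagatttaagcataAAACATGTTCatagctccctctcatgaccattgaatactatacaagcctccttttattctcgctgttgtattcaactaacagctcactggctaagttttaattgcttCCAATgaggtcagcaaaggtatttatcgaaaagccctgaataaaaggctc
The FGF2 window was 75.2% G or C with 3 GC boxes, and the FGF7 window was 38.4% G or C with 1 CCAAT box and 1 p53 half-site (AAACATGTTC), against a median of 58% G or C over 35116 RefSeq windows. Of all windows, 42.6% held a GC box, 32.0% a CCAAT box and 5.57% a p53 half-site. These letters were not followed by any binding measurement here.

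Change was tested with limma on log2(normalized count + 1) over all 8 libraries, with Benjamini-Hochberg adjustment over the 14074 genes. A gene is called, and said to have risen or fallen, at an adjusted p under 0.05. In bulk RNA, fewer cells of a type and less RNA per cell cannot be told apart. At 6 h, 5 of the 10 genes rose (PDGFRB, EGFR, IGF1R, PDGFC, FGF2) and 4 fell (PDGFRA, MET, HGF, FGF7), where 16.1% of all tested genes rose and 20.6% fell. At 9 h, 4 rose and 2 fell, against 16.2% and 19.1% of all genes. At 12 h, 4 rose (PDGFC, HGF, FGF2, FGF7) and 3 fell (PDGFRA, FGFR1, MET), against 18.5% and 21.4%. Over the 4 groups together, 10 of 10 genes differed by limma's F test, as did 49.9% of all tested genes. All these shares include genes with few reads, where change is harder to call, and were not matched to the 10 genes by level. The median size of change from DMSO was 0.33 at 6 h, 0.19 at 9 h and 0.28 at 12 h on the log2 scale for the 10 genes, and 0.18, 0.18 and 0.20 for all tested genes. The 3 comparisons with DMSO share the DMSO libraries, so their values are set side by side and their likeness is not read.

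**Figure D1:**
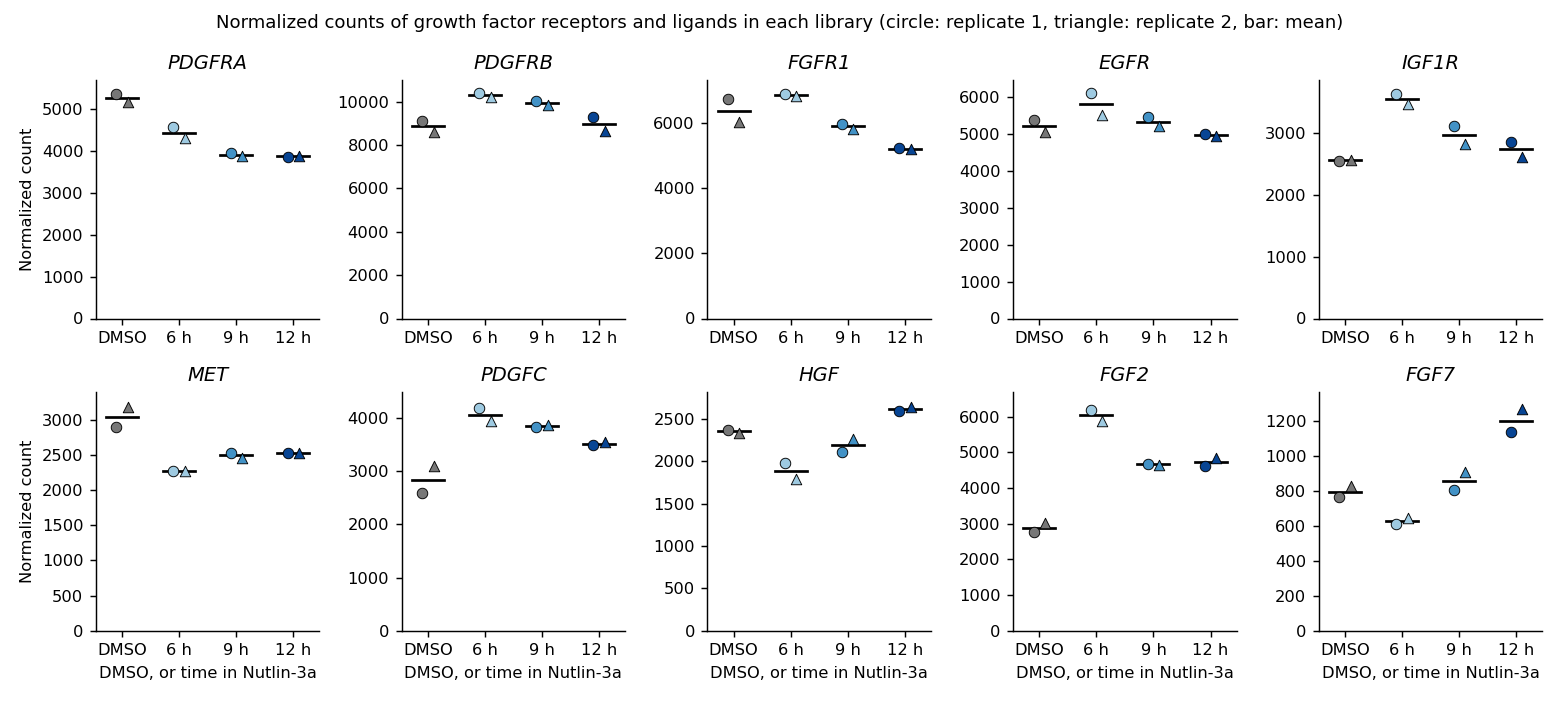
Normalized count (y axis, from 0) of each of the 10 genes in each library, by group (x axis: DMSO or time in Nutlin-3a); circles are replicate 1, triangles replicate 2 and bars the mean of both. FGF2 sat at 2763 and 3009 in DMSO and at 4625 or above in every treated library, while FGF7 was lowest at 6 h and highest at 12 h.

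PDGFRA, the receptor that marks many mesenchymal cells and binds PDGFC, fell at all 3 times. Its normalized counts were 5365 and 5179 in DMSO, 4583 and 4311 at 6 h, 3953 and 3890 at 9 h, and 3873 and 3899 at 12 h. Both DMSO libraries lay above all 6 treated ones, and the 9 and 12 h libraries overlapped. The level fell to 0.843, 0.744 and 0.737 of that in DMSO at 6, 9 and 12 h (log2 -0.25, -0.43 and -0.44, SE 0.05 each; limma adjusted p = 0.000385, 4.56e-07 and 2.39e-07). It was lower at 9 h than at 6 h (adjusted p = 0.0110), a step lost without 6 h replicate 1 (adjusted p = 0.164) or either 9 h library (0.0675 without replicate 1 and 0.119 without replicate 2).

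PDGFRB, the sister receptor that binds PDGF-BB, went the other way and then returned. It measured 9133 and 8605 in DMSO, 10400 and 10234 at 6 h, 10014 and 9837 at 9 h, and 9287 and 8667 at 12 h. The 6 and 9 h libraries lay above DMSO, and the 12 h libraries overlapped it. PDGFRB rose 1.16-fold at 6 h (log2 0.22, SE 0.05; limma adjusted p = 0.00103) and 1.12-fold at 9 h (log2 0.16; adjusted p = 0.0104), and at 12 h the change was 0.02 (adjusted p = 0.801). Without 9 h replicate 1 or 2 the 9 h rise was no longer called (adjusted p = 0.0996 and 0.0531), and the fall from 6 to 12 h (log2 -0.20; adjusted p = 0.00243) was lost without 12 h replicate 2 (0.0849).

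FGFR1, the FGF receptor through which FGF2 signals in fibroblasts, fell late. Its values were 6737 and 6040 in DMSO, 6899 and 6846 at 6 h, 5981 and 5823 at 9 h, and 5234 and 5193 at 12 h. The 6 h pair lay above and the 9 and 12 h pairs below DMSO, but the DMSO libraries were themselves far apart. FGFR1 fell by 18.3% at 12 h (log2 -0.29, SE 0.05; limma adjusted p = 9.74e-05), while the changes of 0.11 at 6 h and -0.11 at 9 h were not called (0.106 and 0.0926). Both values depended on which DMSO library was kept. The 6 h change was 0.19 without DMSO replicate 1 and 0.03 without DMSO replicate 2. At 9 h the change was -0.03 without DMSO replicate 1 and -0.19 without DMSO replicate 2.

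EGFR, the receptor of EGF and its relatives, had, with PDGFRB, the narrowest range of the 10 genes, 0.22 each between group means on the log2 scale. It measured 5394 and 5056 in DMSO, 6108 and 5513 at 6 h, 5461 and 5208 at 9 h, and 5003 and 4958 at 12 h. The 6 h pair lay above DMSO, the 9 h pair overlapped it and the 12 h pair lay below it. EGFR rose 1.11-fold at 6 h (log2 0.15, SE 0.05; limma adjusted p = 0.0301), and the changes of 0.03 and -0.07 at 9 and 12 h were not called (adjusted p = 0.702 and 0.330). The 6 h call was lost without 6 h replicate 1, where the change was 0.08 (adjusted p = 0.393), without DMSO replicate 2 (0.0789) and without 12 h replicate 1 (0.0522) or 2 (0.0523), as well as under quantile normalization (0.111).

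IGF1R, the receptor of IGF1 and IGF2, had the largest early rise among the receptors. Its counts were 2542 and 2562 in DMSO, 3617 and 3461 at 6 h, 3106 and 2814 at 9 h, and 2856 and 2607 at 12 h. All 6 treated libraries lay above both DMSO libraries, and the 9 and 12 h pairs overlapped. IGF1R rose 1.39-fold at 6 h (log2 0.47, SE 0.06; limma adjusted p = 1.74e-06) and 1.16-fold at 9 h (log2 0.21; 0.00670), and stood 0.10 above DMSO at 12 h without being called (0.196). Without 9 h replicate 1 the 9 h change was 0.14 and was not called (adjusted p = 0.167).

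MET, the HGF receptor, fell first and recovered in part. It measured 2905 and 3189 in DMSO, 2273 and 2278 at 6 h, 2533 and 2463 at 9 h, and 2528 and 2535 at 12 h. Both DMSO libraries lay above every treated library. MET fell to 0.748 of the DMSO level at 6 h (log2 -0.42, SE 0.05; limma adjusted p = 2.88e-06), and stood at 0.821 at 9 h and 0.832 at 12 h (log2 -0.28 and -0.27; 0.000258 and 0.000441). Its return from 6 to 12 h (log2 0.15; adjusted p = 0.0326) was lost in 6 of the 8 fits that left out a library, namely each treated one, with adjusted p from 0.0535 to 0.148.

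PDGFC, the PDGF ligand of these 10 genes, rose at all 3 times. Its counts were 2585 and 3091 in DMSO, 4195 and 3937 at 6 h, 3828 and 3871 at 9 h, and 3486 and 3555 at 12 h. All treated libraries lay above DMSO. The rise was 43.8%, 36.2% and 24.5% at 6, 9 and 12 h (log2 0.52, 0.45 and 0.32, SE 0.06; limma adjusted p = 1.66e-06, 1.17e-05 and 0.000460). The DMSO libraries differed, and without DMSO replicate 1 the 12 h change was 0.19 on the log2 scale and still called (adjusted p = 0.00149). PDGFC rose while PDGFRA, its receptor, fell in the same libraries.

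HGF, the ligand of MET, fell and then rose. It measured 2365 and 2338 in DMSO, 1975 and 1786 at 6 h, 2114 and 2261 at 9 h, and 2590 and 2639 at 12 h. The 6 and 9 h pairs lay below DMSO and the 12 h pair above it. HGF fell by 20.1% at 6 h (log2 -0.32, SE 0.06; limma adjusted p = 0.000137), the 9 h change of -0.11 was not called (0.167), and the 12 h rise was 1.11-fold (log2 0.15; 0.0386). That last call was lost without either 12 h library (adjusted p = 0.112 and 0.189 without replicates 1 and 2) or either 9 h library (0.0522 and 0.0525), and in the authors' deposited table (0.0698). The climb from 6 to 12 h was larger, at 0.48 (adjusted p = 1.69e-06).

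FGF2, the basic fibroblast growth factor and a strong fibroblast mitogen, changed most. Its counts were 2763 and 3009 in DMSO, 6203 and 5877 at 6 h, 4672 and 4658 at 9 h, and 4625 and 4849 at 12 h. The 6 h pair was highest, the 9 and 12 h pairs overlapped, and all lay above DMSO. FGF2 rose 2.09-fold at 6 h, 1.62-fold at 9 h and 1.64-fold at 12 h (log2 1.07, 0.69 and 0.72, SE 0.05; limma adjusted p = 2.26e-12, 8.86e-10 and 4.26e-10). Its group means spanned 1.07 on the log2 scale, more than in 92.4% of tested genes. NUDT6 lies on the opposite strand and overlaps FGF2 exons. It measured between 32.3 and 52.6 and was not called at any time, and whether the counting used strand is not given in the sources used here. EGFR exons overlap EGFR-AS1 on the opposite strand, which measured between 9.96 and 19.6. Exons of FGFR1 and PDGFRA overlap annotated genes that had no row, on the opposite strand for FGFR1 and the same strand for PDGFRA.

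FGF7, the keratinocyte growth factor, was lowest at 6 h and highest at 12 h. Its counts were 762 and 825 in DMSO, 608 and 647 at 6 h, 806 and 908 at 9 h, and 1135 and 1265 at 12 h. The 6 h pair lay below DMSO, the 9 h pair overlapped it and the 12 h pair lay above every other library. FGF7 fell by 20.9% at 6 h (log2 -0.34, SE 0.08; limma adjusted p = 0.00144), changed by 0.11 at 9 h without being called (0.292), and rose 1.51-fold at 12 h (log2 0.60; 2.18e-06). Its span of 0.93 exceeded that of 89.7% of tested genes. FGF7 has pseudogene copies; those in the table, FGF7P3 and FGF7P6, stayed at or below 14.6 in every library, and reads shared with them cannot be assigned with certainty.

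**Figure D2:**
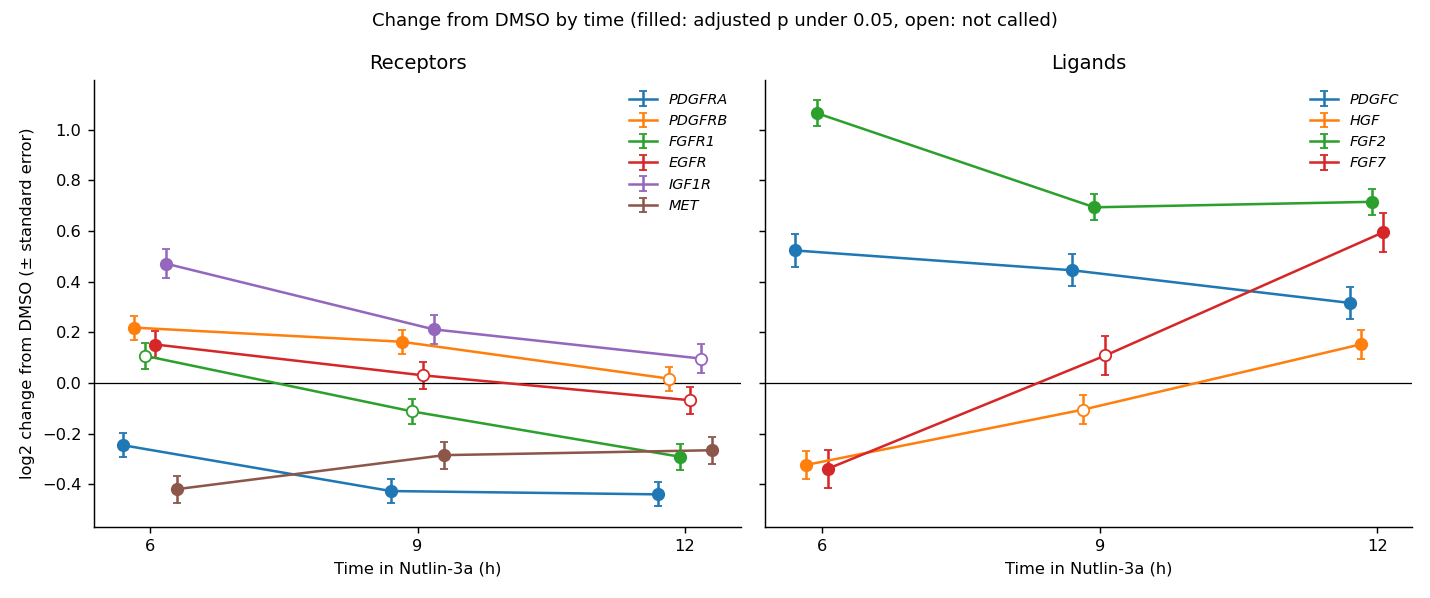
Change from DMSO (y axis, log2, bars ± 1 standard error from limma) against time in Nutlin-3a (x axis, h) for the receptors (left) and ligands (right); filled points are called and open points are not. The lines of PDGFRB, EGFR, IGF1R and FGFR1 run downward from 6 to 12 h, those of HGF and FGF7 run upward, from -0.32 to 0.15 and from -0.34 to 0.60, and FGF2 stays at or above 0.69.

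The times were also compared with each other. From 6 to 12 h, 7 genes fell (PDGFRA, PDGFRB, FGFR1, EGFR, IGF1R, PDGFC, FGF2) and 3 rose (MET, HGF, FGF7), against 17.1% and 14.4% of all tested genes. From 6 to 9 h, 4 fell (PDGFRA, FGFR1, IGF1R, FGF2) and 2 rose (HGF, FGF7), against 9.9% and 8.52%. From 9 to 12 h, HGF and FGF7 rose, where 1.08% of all genes did. No member fell by limma from 9 to 12 h, where 2.92% of all genes fell, and 2 were lower at an unadjusted p under 0.05. FGFR1 was near the threshold (limma adjusted p = 0.0518). Of 12 alternative settings other than leaving out a library, 5 called up to 3 members lower, while edgeR and DESeq2 called 0. HGF and FGF7, the ligands that act mainly on epithelium, were higher at 12 h than at 6 h by 0.48 and 0.93 on the log2 scale. FGF7 kept its rise from 9 to 12 h (log2 0.49; limma adjusted p = 0.000304) in every fit that left out a library and lost it without the intensity trend (0.0919). That of HGF (log2 0.26; 0.00931) was lost without 9 h replicate 1 (adjusted p = 0.253) and without 12 h replicate 1 (0.0856) or 2 (0.170). Several falls from 6 to 12 h rested on 6 h replicate 1: without it PDGFRA, EGFR and PDGFC had adjusted p of 0.0807, 0.104 and 0.183, and PDGFC was also not called without 12 h replicate 1 (0.121) or 2 (0.0759). From 6 to 9 h, the FGFR1 call was lost without 9 h replicate 2 (0.0720), that of IGF1R without 6 h replicate 1 (0.0619) or 9 h replicate 2 (0.112), and that of HGF without 6 h replicate 2 (0.178) or 9 h replicate 2 (0.171).

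Levels between genes were compared per kilobase of the principal GENCODE v29 transcript, as normalized count per kb. In DMSO, PDGFRB was highest at 1598 and 1505, then FGFR1 at 1142 and 1024, PDGFRA at 816 and 788, PDGFC at 621 and 742, EGFR at 549 and 515, MET at 438 and 481, FGF2 at 415 and 452, HGF at 395 and 390, IGF1R at 215 and 217, and FGF7 at 139 and 151. In this order the libraries of MET and FGF2 overlapped, and those of the other neighbours did not. PDGFRB exceeded 91.4% of 12757 tested genes with a length, and FGF7 41.1%. At 6 h FGF2 reached 932 and 883 per kb, above PDGFRA at 697 and 656. PDGFC, at 1007 and 945, was also above PDGFRA at 6 h. The order depends on the length used. Another length merged the exons of all complete protein-coding transcripts of a gene in the basic GENCODE set. With it, PDGFC averaged 681 and PDGFRA 670 in DMSO, and HGF 246 instead of 393.

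**Figure D3:**
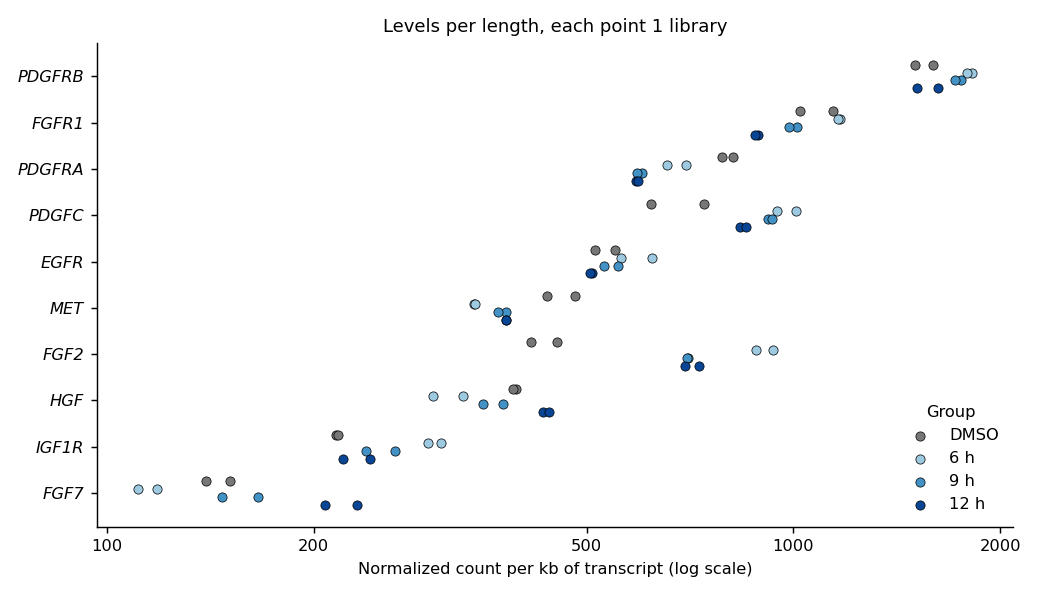
Normalized count per kb of the principal transcript (x axis, log scale) for each gene (y axis, ordered by the DMSO mean), with each point 1 library and shade giving the group. The 10 genes ran from about 139 per kb (FGF7) to 1598 per kb (PDGFRB) in DMSO, and FGF2 moved from 415 and 452 to 932 and 883 at 6 h.

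Other genes of these pathways were read from 8 lists with 144 tested genes. At 6 h, 42 of them rose (29.2%) and 27 fell (18.8%), and at 12 h 34 rose (23.6%) and 30 fell (20.8%), to be read against the shares of all genes given above. Among other PDGF and VEGF family ligands, 4 of 7 rose at 12 h, with a median log2 change of 0.21 against 0.01 over all genes. PDGFA, the ligand of PDGFRA, rose from 205 to 521 (log2 1.35, SE 0.09; limma adjusted p = 2.36e-10) after 724 at 6 h. PGF, a ligand of the VEGF receptor FLT1, rose from 28.5 to 95.8. VEGFB was called lower at 12 h (log2 -0.15; adjusted p = 0.0488), but 17 of 21 alternative settings lost that call, including those without DMSO replicate 1 (0.183) and without either library of the 6, 9 or 12 h groups (0.0638 to 0.219).

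Of 20 other fibroblast growth factors listed, 12 were in the table and 5 were tested. FGF5, an FGF that ends the growth phase of hair, was at 5041 in DMSO and 3594 at 12 h and fell (log2 -0.49, SE 0.05; limma adjusted p = 3.11e-07). Of 5 tested EGF family ligands, 2 rose at 12 h, among them NRG1, a ligand of ERBB3 and ERBB4, from 598 to 1442 (log2 1.27; 3.51e-13); without 12 h replicate 1 the count was 1. EGF stood at 80.0 in DMSO and 58.3 at 12 h and was called lower (adjusted p = 0.0488), a call that leaving out any of the 8 libraries ended (0.0519 to 0.283). Of 7 tested IGF ligands and binding proteins, 5 rose at 12 h, IGFBP4 and IGFBP6 by 0.31 each, and the median was 0.20; without 12 h replicate 2, 3 rose. Binding proteins hold IGFs away from IGF1R or present them to it.

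Of 34 other receptor tyrosine kinases, 5 rose and 10 fell at 12 h, with a median of -0.05. EPHB3, an ephrin receptor, rose from 106 to 198, and LTK rose from 36.5 to 64.7. FGFR3 fell from 165 to 78.2 (log2 -1.07, SE 0.16; limma adjusted p = 1.37e-05), and INSR, the insulin receptor and closest relative of IGF1R, fell from 539 to 300 (log2 -0.84; 5.39e-08) while IGF1R was not lower at any time. Of 18 co-receptors and activators, 4 rose and 3 fell. GPC1, a heparan sulfate proteoglycan that binds FGF2, rose from 9277 to 16548 (log2 0.83; 1.35e-12), and SDC1, another, rose from 2613 to 3996. SDC3 and PLAU, which encodes the protease urokinase, were called lower by small amounts (log2 -0.15 and -0.14; 0.0219 and 0.0174), and both calls were lost without DMSO replicate 1 (log2 -0.07 and -0.10; 0.260 and 0.0688) or either 12 h library (0.0563 to 0.150). In those 3 fits the count of co-receptors and activators that fell was 0.

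Downstream, 7 of 36 adapters and relay genes rose and 9 fell at 12 h, with a median of 0.02. Without DMSO replicate 1, 11 rose, without either 12 h library 4 rose, and without 12 h replicate 2, 5 fell. STAT3 rose by 0.46 and HRAS by 0.37 on the log2 scale, while CRKL fell by 0.35 and NCK2, like CRKL an SH2 and SH3 adapter, fell by 0.33. Of 32 genes that dampen receptors or take them into the cell, 7 rose and 5 fell, with a median of 0.00, and without 12 h replicate 2, 4 rose and 3 fell. SPRED3, a brake on RAS-ERK signalling, rose by 0.71 and SOCS5 by 0.43, and ZNRF3, a ubiquitin ligase of WNT receptors, fell by 0.80, and PTPRJ, a receptor phosphatase, fell by 0.35. Calls in these lists went in both directions.

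**Figure D4:**
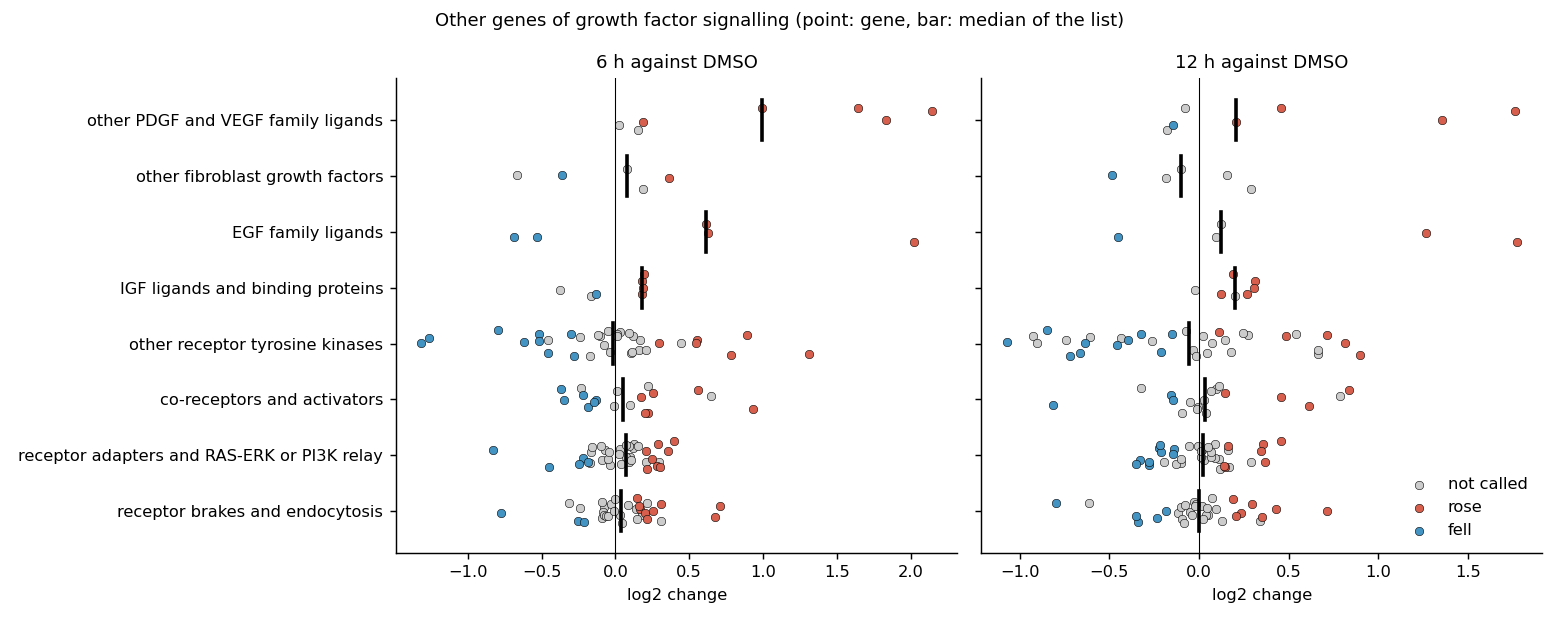
Log2 change (x axis) at 6 h (left) and 12 h (right) against DMSO of the tested genes of 8 pathway lists (rows), with red points called higher, blue points called lower, grey points not called and black bars the list median. The median of other PDGF and VEGF family ligands is at 0.99 at 6 h and 0.21 at 12 h, and the medians of the receptor, relay and brake lists lie near 0.

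For the 3 genes whose group means spanned at least 0.5, the most alike profiles were found among 11451 other genes by the root mean square difference of centred log2 values over the 8 libraries. For PDGFC these were SLC35F5 and ZNF780A (0.036 each), for FGF2 FHL2 (0.089) and TNFSF4 (0.091), and for FGF7 PRSS12 (0.064) and SLC39A11 (0.084). PRSS12 changed by -0.29, 0.13 and 0.54 at 6, 9 and 12 h, beside -0.34, 0.11 and 0.60 for FGF7. FHL2 changed by 0.85, 0.65 and 0.61, beside 1.07, 0.69 and 0.72 for FGF2. These libraries share treatment and size factors, so likeness is a description.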

How the data were processed

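The tools STAR and DESeq2 and the build hg19 are named, without versions, per the submitters' processing notes. The counter, annotation and strand setting are not stated there. The authors deposited one table of normalized counts, a signal of gene counts divided by size factors, with 28.2 to 29.1% of its reads in 3 entries that name no gene, which were left out. Whole reads were recovered from the steps in this table (100% of values whole within 1e-06). The authors also deposited 3 tables of comparisons with log2 fold changes of DMSO over Nutlin-3a, whose sign was turned here, Wald statistics (a score) and p-values.

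Here, log2(normalized count + 1) of genes at 10 or more in at least 2 libraries was fitted in R 4.3.3 with limma 3.58.1 (intensity trend, 4 group means, 8 libraries, threshold 0.05). edgeR 4.0.16 and DESeq2 1.42.0 on recovered reads, other scalings, filters and pseudocounts (0.1, 5) and leaving out each library were alternatives. Code was tested on simulated data. An exact permutation test of 2 against 2 libraries cannot go below p = 0.333, so none is given. Transcript lengths and UTRs come from GENCODE v29 and promoters and the microRNA from RefSeq, both on GRCh38, not the files' build, so these serve only lengths and sequences. The 10 genes and all lists were chosen with earlier results of these data known. Genes outside the 10 were named by a rule: MDM2 and CDKN1A; from each list the 2 largest called rises and falls at 12 h with a mean of at least 50; and the 2 most alike profiles. MIR34AHG, NUDT6, EGFR-AS1, the FGF7 pseudogenes, VEGFA, HBEGF, ERRFI1 and IRS1 were named after their values were seen. Cell type markers were named from their own lists, outside this rule.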

Additional observations from a re-analysis of the deposited data

Results flagged for a closer look

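The comparisons between treatment times that passed limma's test are given here, to be read against the shares of all tested genes that passed. The gene FGF7 was higher at 9 h than at 6 h by 0.45, at 12 h than at 9 h by 0.49 and at 12 h than at 6 h by 0.93 on the log2 scale, and HGF by 0.22, 0.26 and 0.48. MET was higher at 12 h than at 6 h by 0.15. From 6 to 9 h, PDGFRA changed by -0.18, FGFR1 by -0.22, IGF1R by -0.26 and FGF2 by -0.37. From 6 to 12 h, PDGFRA changed by -0.19, PDGFRB by -0.20, FGFR1 by -0.40, EGFR by -0.22, IGF1R by -0.37, PDGFC by -0.21 and FGF2 by -0.35. For PDGFRB, EGFR, MET and PDGFC the change from 6 to 12 h was the sole one called between times, and it lost its call in 1, 1, 6 and 3 of the 8 fits that left out a library.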

How the results depend on the processing

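Each of 60 gene comparisons was recomputed under up to 21 settings; 34 kept direction and side of the threshold in all of them, as did 22 of 30 comparisons with DMSO. Without the intensity trend, the genes that rose numbered 2 at 9 h, 1 from 6 to 9 h and 0 from 9 to 12 h, and those that fell 1 from 6 to 9 h and 4 from 6 to 12 h. Leaving out one library gave 2 to 4 that rose at 9 h, 1 to 3 that rose and 1 to 5 that fell from 6 to 9 h, 1 to 2 that rose and 0 to 3 that fell from 9 to 12 h, and 4 to 7 that fell from 6 to 12 h. The genes that fell from 9 to 12 h numbered 1 with a pseudocount of 5, 1 with a mean of at least 50, 2 with group weights, 3 with the 2 groups alone and 1 with the replicate block, a fit by replicate number. Same-numbered libraries deviated together with correlations from -0.18 to 0.12, so the numbers were not taken as pairs; the block lost 0 calls among the 10 genes and gained FGFR1 from 9 to 12 h (adjusted p = 0.0409). The cause of these shifts was not tested.

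Small uncalled changes turned sign when one library was left out: PDGFRB at 12 h ranged from -0.033 to 0.067, EGFR at 9 h from -0.017 to 0.077, MET from 9 to 12 h from -0.00098 to 0.040, FGF2 from 9 to 12 h from -0.012 to 0.056, and at 6 h VEGFB from -0.014 to 0.065, SDC1 from -0.018 to 0.0039 (0.0050 by quantile normalization, 0.0072 by edgeR) and PTPRJ from -0.13 to 0.0049. edgeR lost 0 and gained 0 calls among the 10 genes, DESeq2 lost 2, and the authors' deposited test lost 1. Of 48 list counts, 22 stayed within 1.5 times in every setting; leaving out single libraries for lists, and every setting for genes outside the 10, was added after seeing the data. At 12 h over all settings, 1 to 3 EGF family ligands and 3 to 5 IGF genes rose, 0 to 4 co-receptors fell, 4 to 11 relay genes rose and 5 to 9 fell, and 4 to 10 brakes rose and 3 to 7 fell. The variance between replicates of a group was 1.95 to 7.61 times that of counting noise (chi-square per degree of freedom, highest in DMSO). Spread between libraries, with 2 a group, therefore limits precision beyond what depth sets.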

Other observations

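Among ligands, adapters and inhibitors of these pathways, chosen here after their values were seen, VEGFA, the main endothelial growth factor, stood at 0.99 above DMSO at 6 h and 0.46 at 12 h on the log2 scale (limma adjusted p at 12 h = 7.32e-07). HBEGF, a ligand of EGFR, stood at 0.61 at 6 h and rose then, and at 0.12 at 12 h it was not called (adjusted p = 0.140). ERRFI1, which encodes an inhibitor of EGFR, rose by 0.71 at 6 h and stood at 0.02 at 12 h (adjusted p = 0.803). IRS1, an adapter of IGF1R and INSR, fell by 0.45 at 6 h and rose by 0.15 at 12 h (adjusted p at 12 h = 0.0138).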
